A study of Mus musculus with 58 samples.

Results

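Liver and forestomach of mice that had received only the vehicle were compared, to ask how far apart the 2 tissues were in gene expression before any exposure. The comparison held 9 of the 58 arrays of the series, chosen by their labels alone, namely the vehicle liver (5 mice) and the vehicle forestomach (4 mice). All 9 arrays came from male Muta™Mouse animals, labelled as 10 weeks old, that were given olive oil by oral gavage on 28 consecutive days, and the tissues were taken 72 h after the last gavage. The other arrays of the series came from lung, or from mice dosed with benz(a)anthracene at 20 mg/kg-bw/day (D1), 40 mg/kg-bw/day (D2) or 80 mg/kg-bw/day (D3), and the vehicle group is called D0. Muta™Mouse is a transgenic line whose cells all carry a bacterial reporter gene for scoring mutations, so both tissues carried it. Equal mouse numbers mark the same animal, and mouse 5 contributed a liver only. RNA was extracted from random sections of each organ, so every value is a mean over all cell types of that section.

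The liver makes most of the proteins of blood plasma, turns cholesterol into bile acids, disposes of nitrogen as urea, releases glucose and chemically modifies foreign compounds before they are excreted. Most of its cells are hepatocytes, a gland-like epithelium with simple keratins, and its blood vessels hold resident macrophages called Kupffer cells. The forestomach is the first chamber of the rodent stomach. It is lined by a stratified squamous epithelium whose cells divide in a basal layer, move upward, fill with keratins and end as a horny layer held together by the cornified envelope, and beneath it lie connective tissue and a wall of smooth muscle with its own nerves.

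Each array was hybridised with tissue RNA labelled with Cy5 and with a universal mouse reference RNA, pooled from cell lines and labelled with Cy3, that was the same on every array. A level is given throughout as the log2 ratio of tissue to reference, and a difference as the liver mean minus the forestomach mean of these ratios, with its standard error (SE), so positive differences are higher in liver. Levels are compared only between arrays, never between genes, because each probe has its own sensitivity. A gene was called different at an adjusted p of at most 0.05 in limma (Benjamini-Hochberg over all 22727 probes tested) with a fold change of at least 1.5. A probe entered the test when at least 4 arrays of either tissue showed it in Cy5 well over its background, and a gene was represented by its brightest tested probe. Where a spot is dim in both channels its ratio lies near 0, which is no level.

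The arrays of the 2 tissues stood far apart. Across the probes tested, pairs of liver arrays correlated with r of 0.971 to 0.986, pairs of forestomach arrays with r of 0.878 to 0.985, and pairs of 1 liver and 1 forestomach array with r of 0.303 to 0.392. The forestomach array of mouse 2 differed from the other 3 forestomach arrays, which correlated with one another at 0.98 to 0.985, and results that rest on it are given with and without it. The share of probes well above background was 34.7% to 44.6% in liver and 51.1% to 57.1% in forestomach, except for forestomach mouse 2 (36.8%). No spot was saturated in Cy5, and no 2 arrays held identical values. Each slide held arrays of 1 tissue only, so differences between slides cannot be told apart from differences between tissues except through the spread among the 3 slides of each tissue.

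Most genes that could be measured differed between the tissues. Of the 22727 probes tested, 11972 (52.7%) were called, 4948 (21.8%) higher in liver and 7024 (30.9%) higher in forestomach, and 3274 (14.4%) differed by at least 4-fold, 1483 (6.53%) in the direction of liver and 1791 (7.88%) of forestomach. The split depended on the scaling. With each array centred on its median in place of loess, 12723 probes were called, 1927 higher in liver (15.1% of the calls, against 41.3%) and 10796 higher in forestomach, because the median difference of all probes moved from -0.10 to -0.81. All differences below are relative to the loess scale. With 1 probe per gene, 12718 genes were tested and 7216 (56.7%) were called, 3012 (23.7%) higher in liver and 4204 (33.1%) higher in forestomach. A difference of at least 4-fold was called for 1025 genes (8.06%) in the direction of liver and for 1294 genes (10.2%) in the direction of forestomach, 18.2% in all. The 2 groups of arrays did not overlap for 65.5% of the genes tested. Counts for groups of genes below are to be read against these shares. Because the tissues are mixtures, a lower level may reflect fewer cells of a type or less RNA per cell, which cannot be told apart in bulk RNA.

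For the brightest genes the reference channel moved as well. The Cy3 channel, which carries the same RNA on every array, differed between tissues by at least 1 on the log2 scale for 352 of the 12718 genes, and for 345 of them Cy3 moved in the same direction as Cy5. At the albumin probe the Cy3 level was 12.19 to 12.51 on the liver arrays and 5.78 to 6.37 on the forestomach arrays, on a log2 scale after both channels were normalised across arrays. Its Cy5 level was 18.58 to 19.07 in liver and 5.93 to 8.61 in forestomach, a difference of 11.97, against 5.55 for the ratio. Of the 182 genes whose Cy5 levels differed by at least 8 on the log2 scale, 172 had a smaller difference in the ratio, with medians of 9.3 for Cy5, 2.42 for Cy3 and 6.92 for the ratio, so for the brightest genes the ratio is the lower of the 2 measures. Over all genes tested the median Cy3 difference was 0.18. The cause of the Cy3 differences was not tested.

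The gene groups separated into liver groups, forestomach groups and groups on neither side. Each group of hepatocyte products, enzymes, regulators and sinusoidal cells had a higher mean level on all 5 liver arrays than on any forestomach array. The same held in the opposite direction for the groups of squamous epithelium, smooth muscle, nerves and fibroblasts. Of the 30 groups, 25 had most of their tested members called in 1 direction. The groups were made from general knowledge of the tissues, so their direction checks the labels of the samples. Members well above background in 1 tissue only entered the test through that tissue, which favours its direction. Among others, they made up 13 of 19 squamous transcription factors, 7 of 12 nerve, glia and pacemaker genes and 8 of 15 upper keratins tested. For cytochromes P450 of families 2 to 4 it was 10 of 20, through liver.

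**Figure D1:**
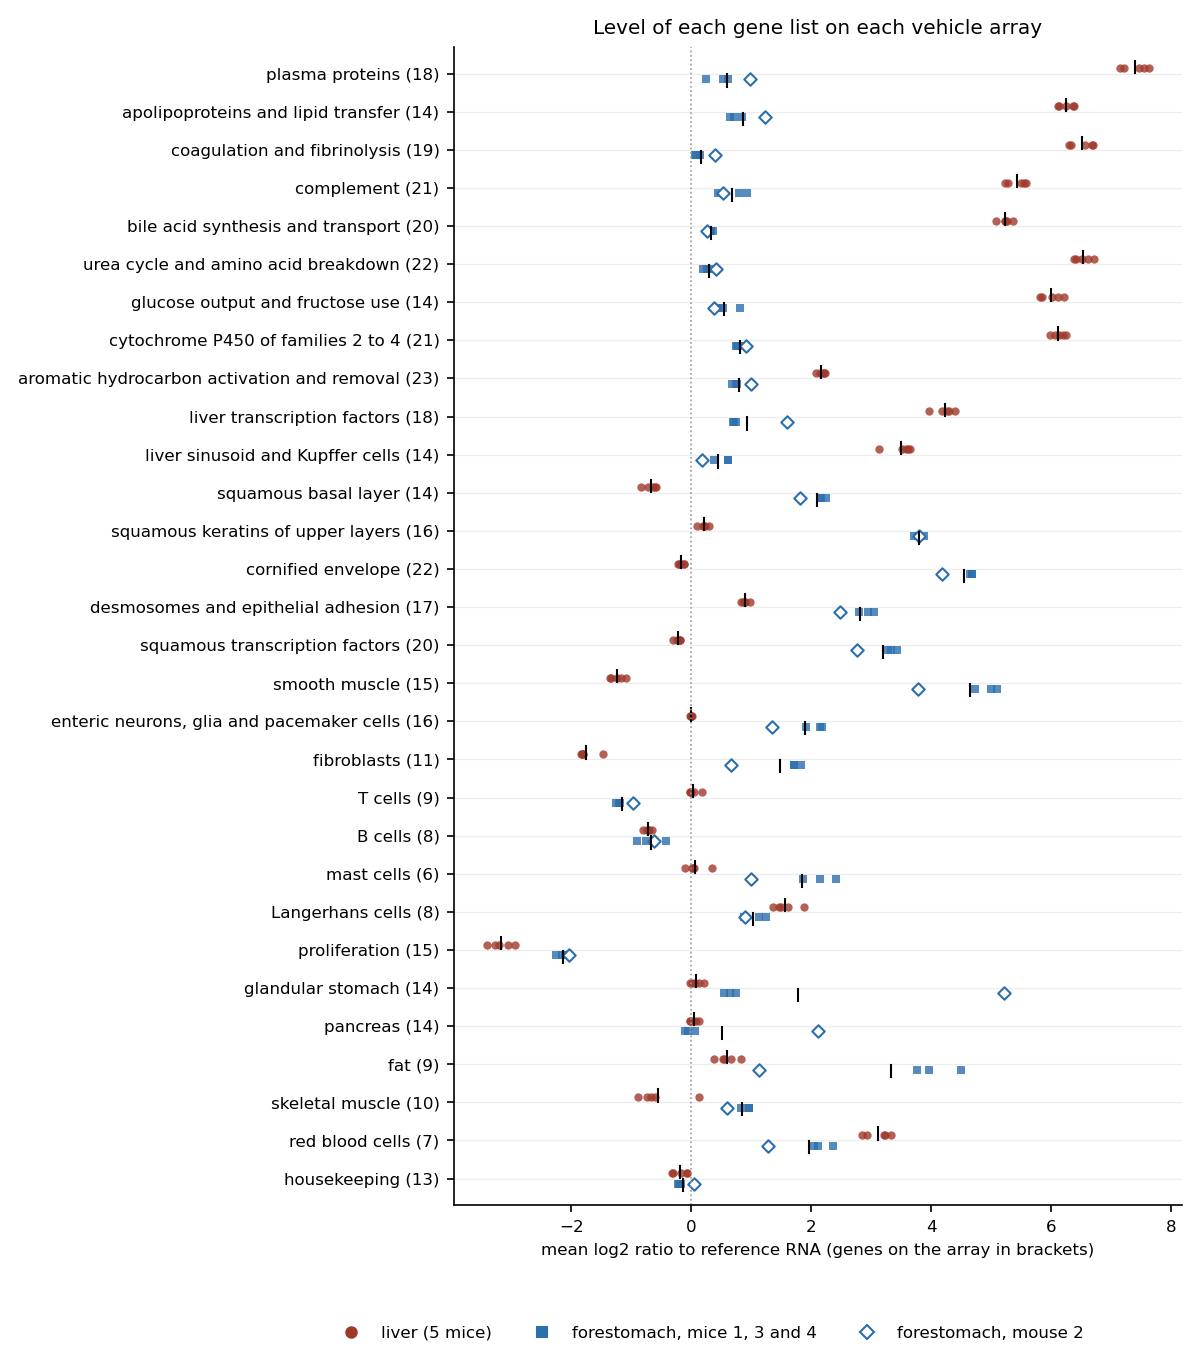
Mean log2 ratio to the reference RNA over each of the 30 gene groups on each of the 9 vehicle arrays, with the number of genes on the array in brackets. Circles are the 5 liver arrays, filled squares forestomach mice 1, 3 and 4, open diamonds forestomach mouse 2, and black ticks the group means. The plasma protein means span 7.15 to 7.64 on liver arrays and 0.26 to 0.98 on forestomach arrays, and the diamond stands apart in the glandular stomach, pancreas and fat groups.

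Among the 12 genes with the largest difference in the direction of liver, the 11 reported here were Akr1c6, Fabp1, Ambp, Serpina3k, Serpinc1, Apoh, Slc27a2, Fgg, Mup5, Rgn and Pzp, with differences of 9.36 to 11.09. Akr1c6, an aldo-keto reductase, lay at 11.45, 11.27, 11.59 and 11.13 on 4 liver arrays, its spot on the fifth having been left out as an outlier, and at 0.06, 0.48, 0.15 and 0.39 in forestomach. The tissues did not overlap. The difference was 11.09 ± 0.14 (SE, adjusted p = 4.55e-12), and because Akr1c6 was not well above background on any forestomach array, the Cy5 channel gives a bound of at least 3720-fold.

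The 12 genes with the largest difference in the direction of forestomach were Actg2, Ada, Myl9, Elovl4, Il1f5, Cnn1, Lce3a, Tagln, Cstdc5, Tpm2, Spink5 and Kprp, with differences of -7.93 to -9.43. They fall into a contractile set (Actg2, Myl9, Cnn1, Tagln and Tpm2, all parts of the actin and myosin apparatus of smooth muscle) and a set of the upper squamous epithelium, such as the envelope protein Lce3a and the protease inhibitor Spink5. Actg2, the enteric smooth muscle actin, lay at -2.83, -3.50, -3.27, -3.03 and -3.0 in liver and at 6.51, 5.92, 6.55 and 6.22 in forestomach, a difference of -9.43 ± 0.17 (adjusted p = 6.82e-12). Ada, the purine enzyme adenosine deaminase, lay at -2.14 to -1.55 in liver and 7.04 to 7.71 in forestomach (-9.36 ± 0.16). For the genes of both rankings the 2 groups of arrays did not overlap, as the rule that named them required. Both rankings are by the ratio and depend on that measure. In Cy5 alone the squamous genes Lor (-11.38) and Krt1 (-10.8) differed more than Actg2 (-9.17), and Fgg (12.28) more than Akr1c6 (11.86).

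**Figure D2:**
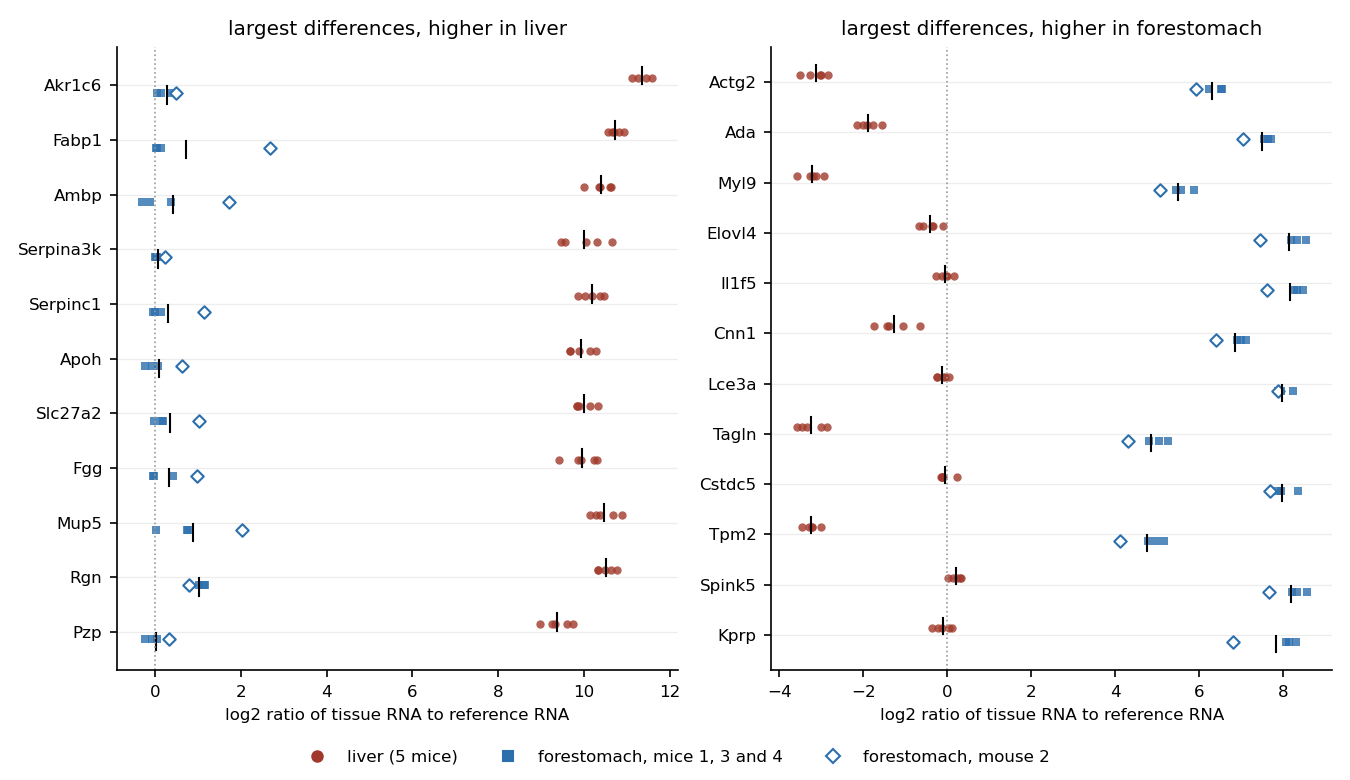
Log2 ratio to the reference RNA on each vehicle array for genes with the largest differences, higher in liver (left, 11 genes) and higher in forestomach (right, 12 genes). Circles are liver, squares forestomach mice 1, 3 and 4, open diamonds forestomach mouse 2 and black ticks the group means. Fabp1 and Mup5 on forestomach mouse 2 (2.69 and 2.03) lie above the other 3 forestomach arrays.

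Secreted liver proteins went in 1 direction. All 18 plasma protein genes were called higher in liver, all by at least 4-fold, with a median difference of 6.71 against -0.14 over all genes tested. Albumin (Alb), the main plasma protein, lay at 6.62, 6.29, 6.59, 6.06 and 6.66 in liver and at 0.14, 2.24, 0.45 and 0.73 in forestomach. The highest forestomach level was that of mouse 2, and the tissues did not overlap. The difference was 5.55 ± 0.36 (adjusted p = 1.5e-07), and 6.00 without forestomach mouse 2. Ambp, the precursor of alpha-1-microglobulin, differed by 9.97 ± 0.35, and Hpx, which binds free heme, by 9.08 ± 0.33, with 1 liver spot of Hpx left out. The smallest difference of the group was that of transferrin (Trf, 2.88 ± 0.23), whose forestomach levels were 3.54 to 4.62, and a second probe of which differed by 5.40 ± 0.53.

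The 14 apolipoprotein and lipid transfer genes on the array were all called higher in liver, with a median difference of 5.34. Apob, the structural protein of very-low-density lipoproteins, lay at 9.80, 8.64, 9.87, 9.34 and 9.04 in liver and at -0.15, 2.10, -0.11 and -0.03 in forestomach (8.88 ± 0.46, adjusted p = 2.18e-08). Apoa1, the core protein of high-density lipoprotein, lay at 6.63 to 7.32 in liver, at 4.65 in forestomach mouse 2 and at 0.08 to 0.32 in the other 3, so a single array set its SE of 0.81 (difference 5.66, or 6.77 without that array). Apoe and Apoc1, which macrophages also make, differed by 3.06 and 1.32.

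Among clotting and fibrinolysis genes, 18 of 19 were called higher in liver and 1 in the opposite direction (median 6.74). Serpinc1, the inhibitor antithrombin, differed by 9.87 ± 0.24, and the fibrinogen chains Fgg, Fga and Fgb by 9.62, 8.35 and 8.09. Fga was not well above background on any forestomach array, which gives at least 734-fold. The exception was the vitamin K-dependent factor F10. Its brightest probe lay at 0.16 to 0.61 in liver and 1.07 to 1.19 in forestomach (-0.77 ± 0.10, adjusted p = 4.97e-05), while another probe of the same accession lay at 5.95 to 6.18 in liver and -0.78 to -0.20 in forestomach (6.54 ± 0.13). Which of the 2 probes reports F10 was not tested. The first was close in brightness in both tissues (Cy5 levels of 17.55 and 17.9), and its direction turned in the authors' own log2 ratios (0.06) and in the scanner's processed signals (0.68).

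Complement genes were called higher in liver in 20 of 21 cases (median 4.86). The terminal components C8b (8.25 ± 0.14, at least 440-fold) and Hc, which encodes C5 (8.09 ± 0.28), and the mannose-binding lectin Mbl2 (7.34 ± 0.28) differed most. The C1q chains, products of macrophages, differed least. C1qa (1.13 ± 0.38) and C1qb (0.98 ± 0.33) were called with overlapping arrays, and C1qc was not called, with levels of 3.39 to 3.95 in liver and 2.08 to 3.56 in forestomach (0.62 ± 0.28, adjusted p = 0.0646). On all 3, forestomach mouse 2 was the lowest array.

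Enzymes of amino acid breakdown and the urea cycle were called higher in liver without exception, 22 of 22, each by at least 4-fold (median 6.28). Cps1, which makes carbamoyl phosphate in the first step of the cycle, lay at 7.77, 7.85, 8.23, 7.89 and 7.69 in liver and at 0.28, 0.14, -0.11 and 0.12 in forestomach. No forestomach array came near the liver arrays, and the difference was 7.78 ± 0.13 (adjusted p = 4.53e-12). Otc, the next enzyme of the cycle, differed by 8.69 ± 0.10 (at least 276-fold), and Bhmt, which returns a methyl group to homocysteine, by 8.73 ± 0.32. The lowest differences were those of the mitochondrial ornithine carrier Slc25a15 (2.95 ± 0.14) and of Fah, the last enzyme of tyrosine breakdown (3.06 ± 0.10).

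Bile acid genes were called higher in liver in 19 of 20 cases (median 4.87). Cyp7a1, the rate-limiting enzyme of bile acid synthesis, lay at 4.33, 6.10, 3.57, 5.57 and 2.98 in liver and at -0.19, 0.03, 0.09 and -0.01 in forestomach. Liver mice 2 and 4 were highest and mouse 5 lowest, a spread of more than 3 on the log2 scale, yet the tissues did not overlap (4.53 ± 0.55, at least 17.3-fold, adjusted p = 2.53e-05). The sterol 12-hydroxylase Cyp8b1 differed by 4.73 ± 0.20, the bile acid ligase Slc27a5 by 9.23 ± 0.14, and the uptake carriers Slco1b2 and Slco1a1 by 9.23 ± 0.17 and 6.96 ± 0.13. Slc10a1, the sodium-dependent bile acid carrier, gave 2 answers. Its brightest probe differed by -0.80 ± 0.12 and a second probe by 6.61 ± 0.10. As with F10, the first was bright in both tissues (Cy5 levels of 17.78 and 18.16) and turned direction in the authors' ratios (0.07) and the processed signals (0.74).

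Genes of glucose output and fructose use were called higher in liver in 13 of 14 cases (median 5.53). Fbp1, an enzyme of gluconeogenesis, differed by 8.29 ± 0.14 and the glucose carrier Slc2a2 by 7.95 ± 0.23 (at least 133-fold). Pck1, the entry enzyme of gluconeogenesis, lay at 8.25 to 9.26 in liver and at 3.20, 0.34, 2.26 and 5.14 in forestomach, the low value being mouse 2 (6.04 ± 0.74, or 5.25 without it). Ppp1r3c, a glycogen-targeting subunit, was not called, with levels of 3.23 to 4.99 in liver and 3.09 to 4.29 in forestomach (0.29 ± 0.35). The other group of foreign-compound enzymes was as one-sided. The cytochrome P450 genes of families 2 to 4 were called higher in liver in 18 of 20 tested cases (median 6.19), led by Cyp2c54 (9.31 ± 0.13), Cyp3a25 (8.84 ± 0.12) and Cyp4a12a (8.52 ± 0.12). Cyp2b10 (0.21 ± 0.50) and Cyp3a13 (0.48 ± 0.38) were not called at their brightest probes and had overlapping arrays, but a second probe of Cyp3a13 was called higher in liver (1.62 ± 0.37, adjusted p = 0.00239). Both are also known from intestine.

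The promoter of Cyp8b1 is shown because it holds CAAAGTCCA, a form of the site of the liver factor HNF4, in the 250 bases before to 50 bases after the start of the gene. It was chosen after its values had been seen. The sequence is that of RefSeq (GRCm38.p6) at chr9:121916256-121916555 (- strand), 5′ to 3′ on the strand of the gene, in lower case with the motif in capitals.
Cyp8b1: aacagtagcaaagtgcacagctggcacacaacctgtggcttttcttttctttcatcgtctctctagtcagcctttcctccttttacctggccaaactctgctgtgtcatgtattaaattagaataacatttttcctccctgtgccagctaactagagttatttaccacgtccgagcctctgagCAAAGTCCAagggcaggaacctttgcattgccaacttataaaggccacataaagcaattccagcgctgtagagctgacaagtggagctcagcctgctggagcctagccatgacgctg
Searched on both strands, these letters were found in 0.47% of all 32851 promoters of the table. Among genes with a promoter, they were held by 1 of 15 bile acid genes and 2 of 17 cytochrome P450 genes of families 2 to 4. They were held by 0 of 11 plasma protein, 0 of 13 apolipoprotein, 0 of 17 clotting and 0 of 14 complement genes. The same held for 0 of 15 urea cycle and amino acid genes, 0 of 11 glucose genes and 0 of 15 liver transcription factors. A match is a description of letters and does not show binding. A comparison between genes higher in liver and genes higher in forestomach was not made, because 79.3% of the genes tested had a promoter in the table.

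Of the 18 liver transcription factors, 16 were called higher in liver, 13 by at least 4-fold (median 3.69). Hnf4a, a nuclear receptor of hepatocytes, lay at 5.37, 4.67, 5.42, 5.08 and 4.76 in liver and at 0.27, 4.00, 0.22 and 0.28 in forestomach (3.87 ± 0.69, adjusted p = 0.000446). The forestomach level of mouse 2 came close to the lowest liver array, and without that array the difference was 4.81 (adjusted p = 9.46e-10).

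Foxa2, a forkhead factor of liver and other gut-derived epithelia, behaved in the same way, at 5.69 to 6.19 in liver, 4.22 in forestomach mouse 2 and -1.10 to -0.85 in the other 3, and Foxa3 lay at 2.99 in mouse 2 and at -0.13 to 0.09 in the others (3.94 ± 0.59, or 4.70 without mouse 2). Foxa2 differed by 5.57 ± 0.94, and by 6.88 without mouse 2. The nuclear receptor Nr1i3 (CAR), which senses foreign compounds, showed no array apart, with -0.14 to 0.05 in forestomach and 5.30 to 5.65 in liver (5.52 ± 0.10, adjusted p = 9.02e-12). Foxa1 was not called (0.86 ± 0.45). On forestomach mouse 2 the 14 glandular stomach genes had a mean level of 5.22, and these factors are also known from glandular stomach. The part of such tissue in their levels was not tested.

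Genes of the liver sinusoid and its Kupffer cells were called higher in liver in 11 of 13 tested cases (median 4.01). The Kupffer cell lectin Clec4f lay at 5.07 to 6.23 in liver and -0.13 to 0.34 in forestomach (5.55 ± 0.22, at least 40.3-fold), Cd5l differed by 5.86 ± 0.36 and the sinusoidal lectin Clec4g by 5.89 ± 0.19. Lyve1 was called in the opposite direction (-2.55 ± 0.49, adjusted p = 0.000717). It marks lymphatic vessels as well as liver sinusoids, and lay at 4.23, 2.02, 4.33 and 4.32 in forestomach and at 0.62 to 2.06 in liver, so mouse 2 overlapped the liver arrays. Liver mouse 1 had the lowest mean level of the group (3.13, against 3.52 to 3.65 on the other 4 liver arrays).

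The genes through which tissues activate and remove aromatic hydrocarbons were split between the tissues. This group matters for the study's exposure, since the aryl hydrocarbon receptor senses such compounds, cytochromes P450 of family 1 oxidise them, and conjugating enzymes or reductases remove or divert the products. Of 21 genes tested, 10 were called higher in liver, 6 higher in forestomach and 5 in neither direction, and the median difference was 0.57, which turned to -0.13 under median centring. By at least 4-fold, 8 were higher in liver and 3 in forestomach.

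**Figure D3:**
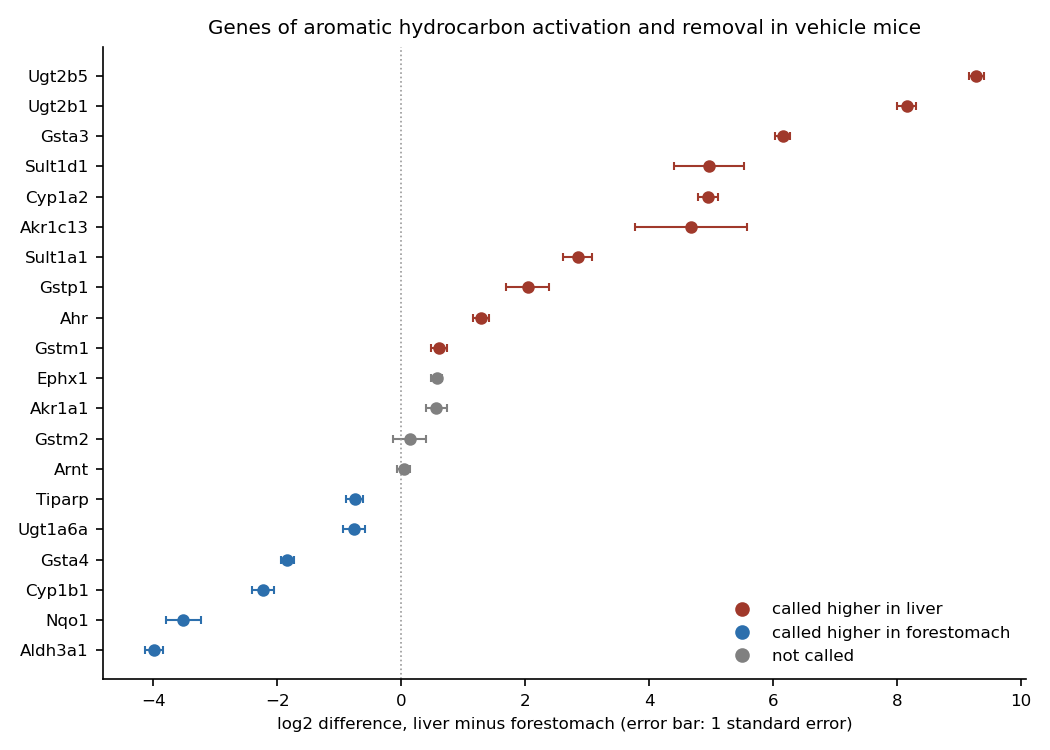
Difference in log2 ratio, liver minus forestomach, for 20 of the tested genes of aromatic hydrocarbon activation and removal in vehicle mice, ordered by size. Bars are 1 standard error. Colours mark genes called higher in liver (10), higher in forestomach (6) or not called (4), from Ugt2b5 at 9.28 to Aldh3a1 at -3.98.

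The receptor itself, Ahr, lay at 0.91, 1.01, 0.87, 0.77 and 0.44 in liver and at -0.61, -0.32, -0.55 and -0.46 in forestomach. The tissues did not overlap, and the difference was 1.28 ± 0.13 (adjusted p = 4.48e-06), although under plain median centring of the arrays it was no longer called (0.42, adjusted p = 0.334). Its partner Arnt was not called (0.04 ± 0.10). Tiparp, a target and repressor of the receptor, was called higher in forestomach (-0.75 ± 0.14). Cyp1a1 and Ahrr, the target genes most used as exposure markers, were not tested, being well above background on no liver array and on 3 forestomach arrays each. Cyp1a1 lay at -0.14 to 0.40 in liver and at 0.77, 0.07, 0.54 and 1.20 in forestomach, and the low forestomach value was again mouse 2. With that array left out and brightness required on the other 3, Cyp1a1 differed by -0.67 and Ahrr by -0.68. Both then entered only through forestomach arrays on which they were bright, by an alternative chosen after seeing the data. Their direction there is therefore no test of a tissue difference.

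The family 1 cytochromes went in opposite directions. Cyp1a2, a constitutive hepatic enzyme, lay at 5.18, 4.48, 5.16, 4.93 and 4.62 in liver and at -0.11, -0.03, -0.23 and 0.06 in forestomach, where no array was well above background (4.95 ± 0.16, at least 191-fold, adjusted p = 3.95e-10). Its Cy3 level was also higher in liver, by 2.93 on the log2 scale. Cyp1b1, the form of connective tissue and many epithelia, lay at -2.82 to -2.04 in liver and -0.34 to 0.09 in forestomach (-2.23 ± 0.17, adjusted p = 7.2e-07). Ephx1, the epoxide hydrolase that acts after them, lay at 1.45 to 1.73 in liver and 0.92 to 1.00 in forestomach, a difference of 0.57 ± 0.09 that did not reach the fold threshold, while a second probe was called at 1.05 ± 0.10. The first probe was called higher in liver in the authors' ratios (0.78), the processed signals (1.08) and Cy5 alone (1.12), and lay at -0.125 under median centring.

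The reductases and dehydrogenases were divided, with the aldo-keto reductase Akr1c13 higher in liver (4.68 ± 0.90, or 5.91 without forestomach mouse 2, the only forestomach array above 0) and Nqo1 and Aldh3a1 higher in forestomach. Nqo1, the quinone reductase, lay at -1.56, -1.02, -1.68, -1.55 and -1.49 in liver and at 2.13, 2.97, 1.79 and 1.34 in forestomach (-3.52 ± 0.28, adjusted p = 8.09e-07). Aldh3a1, an aldehyde dehydrogenase of surface epithelia, lay at -1.33 to -0.65 in liver and 2.79 to 3.08 in forestomach (-3.98 ± 0.14, adjusted p = 1.23e-09). The glutathione transferases were divided, with Gsta3 higher in liver (6.16 ± 0.12), Gstp1 (2.04 ± 0.34) and Gstm1 (0.61 ± 0.12) also higher in liver, and Gsta4, which acts on lipid aldehydes, higher in forestomach (-1.84 ± 0.10). The glucuronosyl transferases Ugt2b5 (9.28 ± 0.12, at least 475-fold) and Ugt2b1 (8.16 ± 0.15, at least 175-fold) were far higher in liver and Ugt1a6a was higher in forestomach (-0.76 ± 0.18). Sult1a1 (2.85 ± 0.24, or 5.64 ± 0.28 at a second probe) and Sult1d1 (4.97 ± 0.56), which add sulphate, were higher in liver, with Sult1d1 at 3.29 in forestomach mouse 2 and at 0.17 to 0.55 in the other 3 (difference 5.69 without mouse 2).

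The squamous epithelium showed itself in each of its layers. In the basal layer 11 of 14 genes were called higher in forestomach (median -3.39). Krt5, the basal keratin, lay at 0.09, 0.01, 0.12, -0.07 and -0.03 in liver and at 4.13, 3.37, 4.16 and 4.17 in forestomach (-3.93 ± 0.16, adjusted p = 3.45e-09). It was not well above background on any liver array, and the Cy5 channel alone gives at least 922-fold, because the Cy3 level of this probe was also higher in forestomach (12.16 against 6.2). Its partner keratin Krt14 differed by -4.90 ± 0.17 (at least 279-fold), Col17a1, which anchors the basal cells, by -4.59 ± 0.34 (at least 19.3-fold) and the integrin subunit Itga6 by -4.25 ± 0.13.

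Trp63, the factor that defines stratified epithelia, depended on the probe. Its brightest probe was not called, at 0.66 to 0.82 on liver arrays and 0.24 to 0.41 on forestomach arrays (difference 0.43 ± 0.08). The Cy5 level of that probe alone was lower in liver (9.73 against 11.22), opposite to the ratio. A probe for another transcript of the gene lay at -0.64 to -0.19 in liver and 5.77 to 6.51 in forestomach (-6.65 ± 0.16, adjusted p = 4.72e-11). Of the 79 listed or named genes with several tested probes, 2 had probes called in opposite directions (F10 and Slc10a1), and 8 had called and uncalled probes, Trp63 among them.

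In the upper layers 12 of 15 keratins tested were called higher in forestomach (median -3.06). Krt1 lay at -0.12, -0.33, -0.25, -0.46 and -0.47 in liver and at 7.49, 7.79, 7.47 and 7.61 in forestomach (-7.92 ± 0.11, at least 1610-fold), and its partner Krt10 differed by -7.16 ± 0.18. These are the keratins of cornifying epidermis. The pair typical of the non-cornified lining of the mouth and oesophagus was present too, with Krt4 at -6.88 ± 0.18 (at least 236-fold) and Krt13 at -6.21 ± 0.16. Krt13 lay at -1.11 to -0.69 in liver and at 5.40, 4.81, 5.55 and 5.45 in forestomach. Krt16, Krt80 and Krt31 were not called, with differences of -0.91, -0.01 and 0.39.

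The cornified envelope group had 19 of 21 tested genes called higher in forestomach, 18 by at least 4-fold (median -5.79). Crct1, the desmosomal Cdsn and the envelope precursor Scel led with -7.82 ± 0.13, -7.10 ± 0.14 and -7.01 ± 0.23 (at least 120-fold for Scel). Loricrin (Lor), the main envelope protein, lay at 0.60 to 1.66 in liver and 7.04 to 7.43 in forestomach (-6.29 ± 0.19), Sprr1a differed by -6.95 ± 0.10, Cnfn by -6.20 ± 0.13 (at least 1240-fold) and involucrin (Ivl) by -2.41 ± 0.17 (at least 3.98-fold). Tchh (0.24 ± 0.14) was not called, and Tgm3, an enzyme that cross-links the envelope, was not called at its brightest probe (-0.04 ± 0.08) but was at another (-4.11 ± 0.21). Csta1, an envelope inhibitor not tested here, differed by -0.998 when forestomach mouse 2 was left out, where it entered only through forestomach arrays.

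Promoters of 2 of these genes are shown because they hold TGACTCA or its reverse complement, the site of AP-1, a factor known from differentiating squamous cells. Lor lies at chr3:92083093-92083392 (- strand) and Ivl at chr3:92573686-92573985 (- strand), both of GRCm38.p6, with the motif in capitals. Both genes belong to the cluster of envelope genes on this chromosome. Chosen after their values had been seen, they are examples and no test.
Lor: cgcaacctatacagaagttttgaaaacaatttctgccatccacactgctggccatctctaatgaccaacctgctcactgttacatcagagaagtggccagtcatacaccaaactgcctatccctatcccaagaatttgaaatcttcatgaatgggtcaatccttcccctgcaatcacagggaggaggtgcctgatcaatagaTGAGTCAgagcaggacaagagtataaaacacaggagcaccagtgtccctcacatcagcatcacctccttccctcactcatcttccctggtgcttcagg
Ivl: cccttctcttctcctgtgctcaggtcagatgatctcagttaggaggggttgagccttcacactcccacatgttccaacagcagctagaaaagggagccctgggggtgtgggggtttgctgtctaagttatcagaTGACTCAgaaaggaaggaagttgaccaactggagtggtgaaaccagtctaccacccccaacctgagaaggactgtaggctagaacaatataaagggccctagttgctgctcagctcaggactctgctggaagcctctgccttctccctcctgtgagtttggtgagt
The AP-1 letters were found in 5.2% of all promoters. Of the 19 cornified envelope genes with a promoter, 5 held them (Ivl, Lor, Sprr1a, Sprr2d and Scel). Genes were counted if any of their promoters held the letters, so this count is not on the scale of the 5.2%. They were held by 0 of 8 basal layer genes, 1 of 9 upper keratins, 1 of 5 junction genes and 0 of 11 squamous transcription factors. The groups were not compared by a test.

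Cell junction genes were divided between the tissues. Of 17 genes, 13 were called higher in forestomach and 4 higher in liver (median -2.04). Ly6d (-6.53 ± 0.15), a surface protein of squamous cells, the desmosomal plaque protein Pkp1 (-5.74 ± 0.19, at least 147-fold) and the desmosomal cadherin Dsg3 (-4.09 ± 0.30, at least 10.9-fold) were higher in forestomach. So were Dsp (-3.74), Cdh1 (-2.79) and Epcam (-2.15). The desmosomal genes Dsg2 (2.20 ± 0.24), Pkp2 (2.19 ± 0.27) and Dsc2 (1.37 ± 0.31), and the tight junction protein Cldn1 (1.42 ± 0.30) were higher in liver. Pkp2 lay at 0.52 to 0.72 in liver, at -0.48 in forestomach mouse 2 and at -1.96 to -1.83 in the other 3, and Dsg2 and Dsc2 were likewise highest in mouse 2 within forestomach. The 4 genes higher in liver kept that direction without mouse 2, and under median centring Cldn1 was not called (0.67, adjusted p = 0.0864).

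Transcription factors of squamous and foregut epithelium were called higher in forestomach in 17 of 19 tested cases (median -3.68). No liver array showed 13 of the 19 well above background, so these entered the test only through forestomach. Grhl3 (-6.24 ± 0.16), Klf4 (-6.11 ± 0.14) and Grhl1 (-5.91 ± 0.19, at least 47-fold), all regulators of the skin barrier, led. Sox2, a factor of the foregut, lay at -0.22 to 0.04 in liver and at 3.96, 2.54, 3.76 and 4.23 in forestomach (-3.68 ± 0.28, at least 7.91-fold, adjusted p = 5.97e-07). Elf3 (-0.41 ± 0.45) and the brightest probe of Trp63 were not called.

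The stomach wall beneath the epithelium was as clear. All 14 smooth muscle genes tested were called higher in forestomach by at least 4-fold (median -6.58). Myh11, the smooth muscle myosin heavy chain, lay at 0.70, 0.37, -0.01, 0.32 and 0.10 in liver and at 6.26, 5.62, 6.28 and 6.31 in forestomach (-5.82 ± 0.18). Myocd, the factor that switches on contractile genes, differed by -3.01 ± 0.45 (at least 5.32-fold). Of 12 genes of nerves, glia and pacemaker cells, 11 were called higher in forestomach (median -1.94), among them the neuropeptides Tac1 (-5.17 ± 0.35, at least 21.9-fold) and Vip (-3.35 ± 0.14) and the pacemaker channel Ano1 (-4.25 ± 0.20). All 11 fibroblast genes were called higher in forestomach (median -3.09), including the matrix genes Fbln1 (-5.07 ± 0.23), Postn (-4.57 ± 0.34) and Col1a1 (-4.55 ± 0.26). Forestomach mouse 2 was the lowest forestomach array for the means of all 3 groups, at 3.78 against 4.74 to 5.10 for smooth muscle.

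Immune genes went in both directions, and most proliferation genes were called higher in forestomach. T cell genes were called higher in liver in 4 of 5 tested cases, namely Zap70 (4.81 ± 0.23), Cd4 (2.96 ± 0.10), Cd3g (0.63 ± 0.19) and Cd3e (0.60 ± 0.15). Cd3g and Cd3e lay near the threshold of 0.585 on the log2 scale, and Lck was not called (0.27). Under median centring the median of the tested T cell genes turned to -0.22. Cd4 is also made by macrophages, and Cd3g, a chain of the T cell receptor complex, was not called with mouse as a block (0.54, adjusted p = 0.0485, under the fold threshold) and lay at -0.22 under median centring. Cd3g also fell under the fold threshold with slide as a random block (0.567) and without forestomach mouse 3 (0.536), forestomach mouse 4 (0.526) or liver mouse 5 (0.539). The 3 mast cell genes tested were all higher in forestomach, with Cpa3 at -3.50 ± 0.47 (at least 7.35-fold), Mcpt4 at -2.96 ± 0.24 and Tpsb2 at -1.70 ± 0.18. Of 3 B cell genes, Fcer2a was called higher in forestomach (-1.13 ± 0.19, at least 2.04-fold). The 7 Langerhans cell genes tested were mixed, with 2 called higher in liver, 3 higher in forestomach and 2 in neither direction (median -0.52). Langerin (Cd207), the marker of Langerhans cells, was higher in liver (2.77 ± 0.19, at least 5.81-fold) and not well above background on any forestomach array. Cd1d1, which presents lipids, was higher in liver (6.25 ± 0.20). Mfge8 (-2.49 ± 0.20), H2-Aa (-1.145) and H2-Eb1 (-0.745) were higher in forestomach. Of 15 proliferation genes on the array 11 were tested, and 10 were called higher in forestomach (median -1.20). Mki67 (-2.71 ± 0.17), Rrm2 (-2.56 ± 0.22) and Birc5 (-2.51 ± 0.17) led, and the other 2 probes of Birc5 gave -0.91 and 0.00, the latter not called. With forestomach mouse 2 left out and brightness judged on the other 3, Cdk1 (0.58), Bub1 (0.26) and Tyms (0.06) entered and were not called.

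Genes of neighbouring tissues were looked at because organ samples can hold them. Of the glandular stomach genes, the mean level was 0.64, 5.22, 0.74 and 0.55 on the 4 forestomach arrays and -0.03 to 0.22 in liver, with 13 of the 14 genes well above background on forestomach mouse 2 and 6 to 9 on the others. Intrinsic factor (Cblif), a product of gastric glands, lay at 8.18 on that array and at -0.29 to 0.61 on the other 3, and the acid pump subunit Atp4b at 6.55 against -0.09 to 0.04. Pancreas genes had a mean of 2.11 in mouse 2 and of -0.10 to 0.07 in the other 3. Fat genes went the opposite way, at 3.77, 1.13, 3.96 and 4.50, with adiponectin (Adipoq) at 4.37, -0.12, 5.07 and 5.64. Forestomach mouse 2 thus differed from the other 3 in 3 sets of markers of neighbouring tissues. Tff1 (-4.07 ± 0.51), Gkn2 (-3.0 ± 1.12) and Muc5ac (-2.65 ± 0.59), secreted proteins of the gastric surface, were called higher in forestomach. The limma call of Gkn2 (adjusted p = 0.0328) was lost with mouse as a block (adjusted p = 0.0549) and with Cy5 alone (0.101). It was also lost without the brightness filter (0.0523) and on leaving out any 1 liver mouse (0.0547 to 0.0589). Without forestomach mouse 2 the Gkn2 difference was -1.45 (adjusted p = 1.61e-05). Without that array Muc5ac differed by -1.87 and Tff1 by -3.40.

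**Figure D4:**
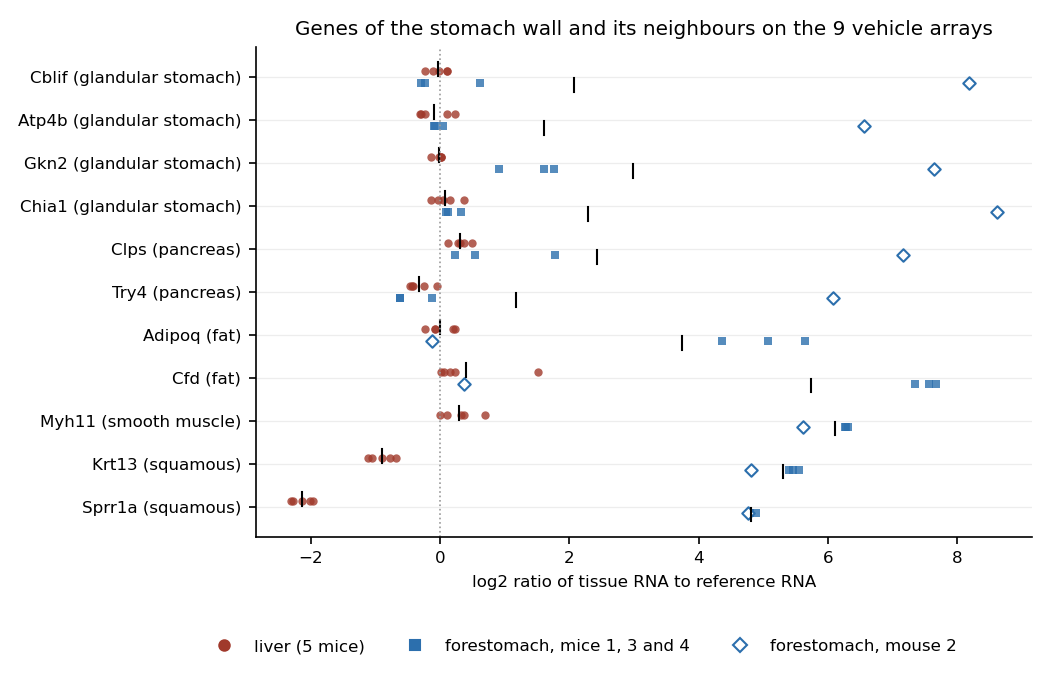
Log2 ratio to the reference RNA on each vehicle array for genes of glandular stomach, pancreas, fat, smooth muscle and squamous epithelium. Circles are liver, squares forestomach mice 1, 3 and 4, open diamonds forestomach mouse 2, black ticks group means. On mouse 2 Cblif reaches 8.18 and Adipoq is at -0.12, while Myh11 (5.62) and Krt13 (4.81) are the lowest of the forestomach arrays but far above liver.

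Skeletal muscle genes were called higher in forestomach in 4 of 5 cases, with Acta1 at -4.77 ± 0.37, Tnni2 at -4.62 ± 0.40 and Myh2 at -2.74 ± 0.49. Within liver, mouse 1 had the highest mean level of this group (0.12, against -0.89 to -0.61 on the other 4), and Tnni2 lay at 0.15 in that mouse against -1.86 to -1.41. Of 5 red blood cell genes, Alas2 (4.82 ± 0.33), Hbb-b2 (1.18 ± 0.40) and Hba-a1 (1.17 ± 0.33) were called higher in liver, the globins not under median centring (0.02 and 0.34). Hbb-b2 differed by 0.67 without forestomach mouse 2 (adjusted p = 0.00499) and was not called on the scanner's processed signals (0.52, adjusted p = 0.053). The fat genes Fabp4 (-4.55 ± 0.14), Plin4 (-3.82 ± 0.23) and Cidec (-3.34 ± 0.69, or -4.22 without forestomach mouse 2) were higher in forestomach and Adrb3 higher in liver (2.07 ± 0.51, not called under median centring). Of the pancreas genes tested, Cel was higher in forestomach (-1.65 ± 0.17) and Ctrb1 higher in liver (1.58 ± 0.14). Genes in common use as controls were called at a share near that of all genes tested (56.7%). Of 13, 4 were called higher in forestomach, against 33.1% of all genes, and 4 higher in liver, against 23.7%. Actb differed by -1.96 ± 0.13, Rplp0 by -1.63 ± 0.12 (not called on the scanner's processed signals, -0.32) and B2m by 3.09 ± 0.20. Tbp (0.02 ± 0.09) and Psmc4 (0.15 ± 0.09) differed least. The median of this group was 0.02 and turned to -0.01 to -0.02 when liver mouse 2, liver mouse 3 or forestomach mouse 2 was left out.

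Vehicle mice of the same tissue also differed from one another. The median SD over genes was 0.175 among the 5 liver arrays and 0.198 among the 4 forestomach arrays, or 0.111 without forestomach mouse 2. In liver the most variable genes were Moxd1, Rnase2a and Mfsd2a, and among the 20 most variable were 5 genes with known daily or feeding rhythms in liver, Dbp, Usp2, Cyp7a1, Alas1 and Rgs16, a set picked out after its values were seen. Dbp, a clock output factor, lay at 0.86, 2.29, -1.08, 2.15 and 1.53, and Usp2, a deubiquitinase, at 0.15, 2.13, -0.82, 2.30 and 1.43, so mouse 3 was lowest in both and mice 2 and 4 were highest. Arntl, whose rhythm opposes that of Dbp, lay at 0.20, -1.26, 1.81, -1.09 and 0.18, with mouse 3 highest. In forestomach the most variable genes were Clps, Tspan8, Gkn2, Psca and Pgc, and the pepsinogen Pgc lay at 5.63 in mouse 2 and at 0.06 to 0.31 in the other 3.

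The same comparison was made within the dosed mice, whose arrays are not shared with the vehicle mice. Of the 22727 probes, 11749 (51.7%) were called at D1, 11377 (50.1%) at D2 and 11738 (51.6%) at D3. Of the 11972 probes called in vehicle mice, 10736 (89.7%), 10516 (87.8%) and 10705 (89.4%) were called in the same direction at D1, D2 and D3, and 2, 0 and 2 in the opposite direction. Among the 3274 probes called by at least 4-fold in vehicle mice, 3261, 3260 and 3266 were called again in the same direction. The tissue differences of vehicle mice were thus measured again in 3 sets of other animals. Because no slide held both tissues, differences between slides could recur in the dosed groups as well. The repeated calls therefore do not separate tissue from slide, and the part of slides in them was not tested.

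**Figure D5:**
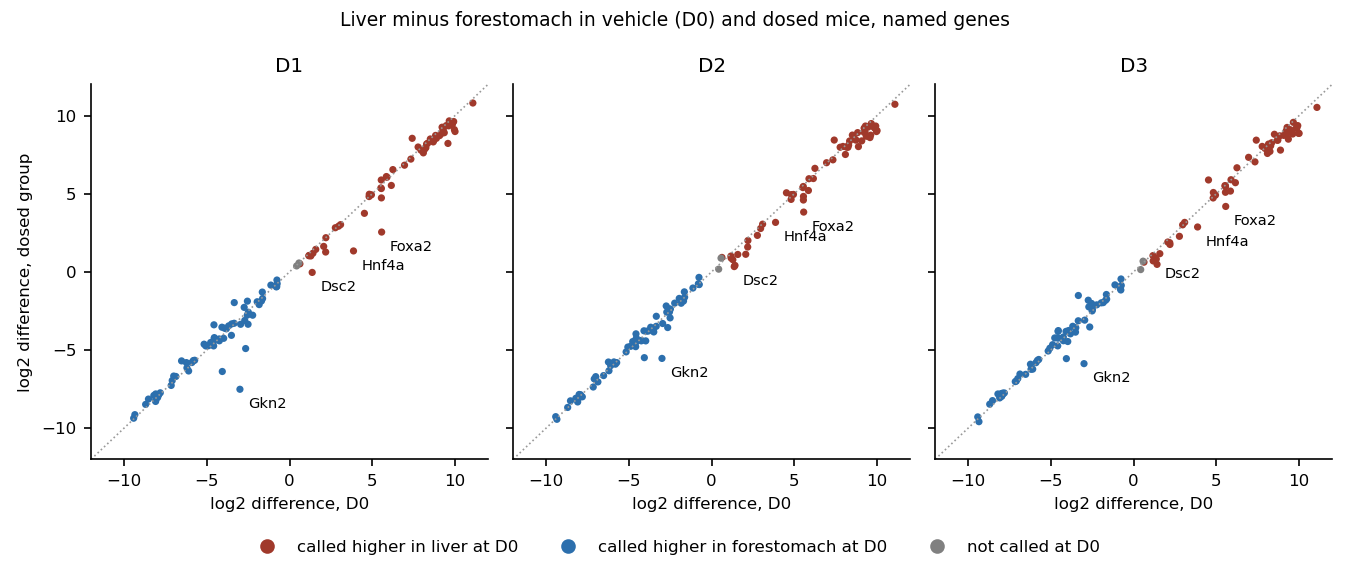
Difference in log2 ratio, liver minus forestomach, of the named genes in vehicle mice (D0, horizontal axis) and in each dosed group (D1, D2 and D3, vertical axes). Colours mark the call at D0 and the dotted line marks equal differences. Most points lie on the line, and Gkn2, Foxa2, Hnf4a and Dsc2 lie off it.

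A few named genes gave different sizes in dosed mice. Gkn2 differed by -3.0 in vehicle mice and by -7.52, -5.55 and -5.88 at D1, D2 and D3, and Tff1 by -4.07 and by -6.38, -5.50 and -5.56. Hnf4a differed by 3.87 and by 1.34, 3.17 and 2.87, and Foxa2 by 5.57 and by 2.55, 3.83 and 4.19. Dsc2, called higher in liver in vehicle mice (1.37), differed by -0.04, 0.34 and 0.82 in the dosed groups. The vehicle values of these genes depended on forestomach mouse 2. Without that array they were -1.45 for Gkn2, -3.40 for Tff1, 4.81 for Hnf4a, 6.88 for Foxa2 and 1.67 for Dsc2. The changes between vehicle and dosed mice, and any part of glandular stomach tissue in them, were not tested here.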

How the data were processed

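RNA of 9 samples was hybridised to 2-colour Agilent mouse arrays of 62976 spots, with Cy5 tissue RNA against a common Cy3 reference and no dye swap. The deposited scanner files hold spot and background intensity values, and the authors also deposited a table of normalised log2 ratios, whose values correlated with those used here at 0.997 to 0.998. Median signals without background correction were loess-normalised within each array in R 4.3.3 with limma 3.58.1, control and outlier spots (0.495%) having weight 0, and spots of a probe were averaged. Liver and forestomach were compared by limma's moderated test, two-sided, without a block, as written in the report. Of the probes tested, 16902 passed the brightness requirement in both tissues. A lower bound on fold was taken from Cy5 where a gene was dim on every array of 1 tissue. The number of arrays limits the precision.

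Equal mouse numbers mark the same animal by the labels. Same-mouse deviations from the tissue means correlated at 0.089, 0, 0.072 and 0.082, and mouse 5 dropped out of the blocked difference. The labels name separate animals as replicates. On simulated arrays, 99 of 100 changes of log2 size 3 and 81 of 100 of size 1 were recovered, with 11 false calls among 22727 probes. The simulation gave both tissues the same spread, held no array apart and changed few probes, unlike these data. It therefore gives no error rates for them.

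Genes were named by a rule (131 genes): the 12 largest non-overlapping differences each way, the 3 largest of each of 30 groups, members against their group's direction, and a set list; other genes are members of those groups or were chosen after their values were seen. The groups, the comparison and the rule were chosen with earlier results of these data known. Alternatives were the authors' log2 ratios, median centring, normexp background correction with an offset of 50, the scanner's processed signals, Cy5 alone, other brightness filters, a mouse block, a slide block, a model of all 58 arrays, a 4-fold threshold and leaving out each array. Gene symbols came from accessions matched to RefSeq, 26413 of 55681 probes having one. A few members of the groups are not reported here.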

Additional observations from a re-analysis of the deposited data

Results flagged for a closer look

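The 312 sets of values, 156 for each tissue, were the 30 group means and the named genes reported here. In 41 sets 1 array exceeded the critical value of Dixon's test, which chance alone exceeds in about 1 set in 20. The test takes the distance of that array to the nearest other as a share of the range of the set. The 41 made up 13.1% of the sets, and 31 lay in forestomach, 30 of them at mouse 2.

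In forestomach mouse 2 the group means stood apart upward for glandular stomach (5.22), pancreas (2.11), liver transcription factors (1.59) and the control genes (0.054), and downward for the cornified envelope (4.19) and fibroblasts (0.67). The genes that stood apart upward in that array were Gkn2 (7.63), Muc5ac (5.56), Foxa2 (4.22), Hnf4a (4.00), Fabp1 (2.69), Apob (2.10), Dsg2 (1.85), Slc10a1 (1.56), Serpinc1 (1.15), Hpx (1.01), Itga6 (0.50), Ctrb1 (0.40), Mfge8 (-0.19) and Pkp2 (-0.48). Those that stood apart downward were Kprp (6.80), Myh11 (5.62), Pkp1 (3.75), Krt14 (3.49), Krt5 (3.37), Postn (2.83), Fbln1 (2.76), Hbb-b2 (2.14), Lyve1 (2.02) and Ano1 (1.96). Actb stood apart in forestomach mouse 4, at 0.75. The cause was not tested.

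In liver, mouse 1 stood apart with the highest mean of the fibroblast genes (-1.48) and the skeletal muscle genes (0.12), with Tnni2 (0.15), and with the lowest mean of the sinusoid and Kupffer cell genes (3.13). Mouse 2 was highest for Cidec (1.60), Grhl3 (0.23) and Nqo1 (-1.02), mouse 3 for Ephx1 (1.73) and mouse 4 for Cstdc5 (0.23), and mouse 5 was lowest for Gkn2 (-0.14), where Gkn2, Grhl3 and Cstdc5 were dim in liver.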

How the results depend on the processing

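The count of 11972 probes called ran from 11790 to 13992 in the other normalisations, blocks and left-out arrays over the same probes. With mouse as a replicate block 11951 probes were called, 97.2% of the original calls among them, and with slide as a random block 11815. Median centring gave 1927 higher in liver and 10796 higher in forestomach, and raised the median SD to 0.266 in liver and 0.845 in forestomach. Requiring brightness on all 9 arrays left 7867 calls of 16134, 4504 of them higher in forestomach, and 38 of the named genes called. A 4-fold threshold left 3274, 1483 in the direction of liver and 1791 of forestomach. Leaving out each array gave 11790 to 12466 calls, 4816 to 5140 in the direction of liver and 6915 to 7326 of forestomach, with median SDs of 0.16 to 0.179 in liver and 0.111 to 0.216 in forestomach. Without forestomach mouse 2, and with brightness judged on the other 3 arrays (an alternative chosen after seeing the data), 13602 of 28640 were called.

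Directions turned as follows, and the causes were not tested. F10 went from -0.77 to 0.06 in the authors' ratios and 0.68 in processed signals, and Slc10a1 from -0.80 to 0.073 and 0.74. Median centring turned Cd3g to -0.22, Ephx1 to -0.13, Trp63 to -0.33, the median of the T cell genes to -0.22, of the aromatic hydrocarbon genes to -0.13 and of the control genes to -0.83. Cy5 alone turned Trp63 to -1.49. The control median lay at -0.017 without forestomach mouse 2, with either filter, at -0.01 without liver mouse 2 and at -0.013 without liver mouse 3, in a range of -0.017 to 0.05 as arrays were left out. The pancreas median turned to 1.58 with brightness on all 9 arrays and to 0.045 without forestomach mouse 2, with either filter, and ran from -0.879 to 0.045 as arrays were left out. Gene values kept their direction and call in 2584 cases, lost the call in 22, gained it in 6 and turned in 8. Beyond the mouse block values given above for Gkn2 and Cd3g, the block ended no call of a named gene.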

Other observations

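The genes below were picked after their values were seen, some of them for going opposite ways, and they are no count over their families. Among fatty acid elongases, Elovl2 (8.29 ± 0.22, at least 230-fold), Elovl3 (5.14 ± 0.21, at least 88.1-fold) and Elovl5 (3.12 ± 0.14) were higher in liver and Elovl4 (-8.54 ± 0.21, at least 282-fold), Elovl7 (-4.28 ± 0.23, at least 19.4-fold), Elovl1 (-3.24 ± 0.17) and Elovl6 (-1.38 ± 0.22) were higher in forestomach. Elovl4 makes the very long fatty acids of the skin barrier and Elovl2 polyunsaturated ones. The fatty acid binding proteins Fabp1 (10.01 ± 0.48, or 10.67 without forestomach mouse 2) and Fabp2 (7.65 ± 0.27), the desaturase Scd1 (3.79 ± 0.59, or 3.06 without that array) and the glycerol channel Aqp9 (2.68 ± 0.13) were higher in liver. The epidermal binding protein Fabp5 (-5.88 ± 0.22), the desaturase Scd2 (-4.09 ± 0.17) and the glycerol channel Aqp3 (-6.85 ± 0.12, at least 167-fold) were higher in forestomach. All were called by limma.

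Also picked in this way, 6 cytokine genes were higher in forestomach, Il1f5 (-8.21 ± 0.17, at least 282-fold), Il1f6 (-7.03 ± 0.12, at least 330-fold), Il1f9 (-5.04 ± 0.32, at least 28.2-fold), Il1f8 (-4.19 ± 0.35), Il33 (-4.03 ± 0.20) and Il18 (-2.80 ± 0.26). The growth hormone receptor Ghr (3.40 ± 0.10) and its target Igf1 (6.20 ± 0.15) were higher in liver. The simple-epithelial keratins depended on 1 array. Krt18 lay at -0.32 to 0.27 in liver and at -5.00, 0.70, -3.66 and -4.53 in forestomach, and Krt8 at -0.41 to -0.27 in liver and -4.13, 0.61, -2.79 and -3.72 in forestomach, so in forestomach mouse 2 both exceeded every liver array.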
